A study of Rattus norvegicus with 18 samples.

Results

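The 9 genes described here belong to the NRF2 pathway, by which cells answer oxidants and electrophiles. They were taken as a list of identifiers from the 55335 gene identifiers of the kidney count table: Nfe2l2, which encodes the transcription factor NRF2, Keap1, which encodes its inhibitor, and the targets Nqo1, Hmox1, Gclc, Gclm, Slc7a11, Txnrd1 and Srxn1. All 9 were found in the table, and all 9 passed the filter on low counts, which left 19233 genes. Polyadenylated RNA of kidney was sequenced in 18 libraries, 6 in each of 3 groups, from animals that the labels give as Rattus norvegicus. Control animals (Ctrl) had ordinary feed and solvent by gavage. Animals of the diabetic nephropathy model (DN) had a high-fat diet and an injection of STZ, an agent that kills pancreatic beta cells. Treated animals (Treat) were model animals that were given TSK, named in the labels only by this abbreviation, at 500 mg/kg per day by mouth for 4 weeks. The labels give no age, and no vehicle gavage is stated for the model group. The series description counts 6 animals in each group.

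NRF2 is made all the time and, in an unstressed cell, is bound by KEAP1, which presents it to a CUL3 ubiquitin ligase for degradation. When cysteines of KEAP1 are modified by oxidants or electrophiles, NRF2 escapes, enters the nucleus, pairs with small MAF proteins and binds antioxidant response elements near its target genes. Control is therefore largely at the level of the protein, which RNA counts do not measure, although NRF2 can also act on its own gene. In kidney the pathway is known from tubular epithelium, where it protects against oxidant, haem and ischaemic injury.

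Library totals ran from 22040987 to 35275498 counts, so that counting error was small for all members but Slc7a11. Every identifier is of the mouse series while the labels give rat. If rat reads were counted on mouse genes, the share of reads kept may vary from gene to gene, so levels are compared here only within a gene. No tissue or cell type marker could be matched to an identifier, so the tissue label was not checked against markers. In whole kidney, a change in the share of a cell type and a change in RNA per cell cannot be told apart. The controls were not uniform: in 5 of them ENSMUSG00000086503 had 38313 to 52784 counts, while control library 4 had 23 and every DN or treated library had 12 to 41. The labels give no sex, strain or source of the animals, and a difference of such a kind between those 5 controls and all other animals cannot be told apart from the effect of the model in the comparisons with Ctrl. Each gene's change against Ctrl is therefore given also from a fit with this division as a covariate, in which control library 4 alone serves as the control level. Treated library 1 (-78.8) and control library 4 (-54.2) stood apart on the second principal component, where the other libraries lay between -25.2 and 26.8. Control library 5 held 170526 counts of ENSMUSG00000029368, against 59 to 1930 in the other 17 libraries.

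The comparison of DN with Ctrl asks how the pathway stood in the diseased kidney. Of the 9 genes, 6 rose in DN: Nqo1 and Hmox1 by about 2.7-fold, and Nfe2l2, Keap1, Txnrd1 and Srxn1 by 1.36-fold to 1.57-fold. None fell. Gclc, Gclm and Slc7a11 also had higher means in DN but did not pass the test. The test was edgeR's quasi-likelihood F-test with Benjamini-Hochberg adjustment over all 19233 genes, with a call at an adjusted p under 0.05. By the same test 16.9% of all genes tested were called higher in DN, so that the count of 6 is set against a common event. The median log2 fold change of the 9 genes was 0.63, and that of all genes tested was 0.01. For the same 6 genes every DN library lay above every control library, which held for 8.34% of all genes in that direction. With the division of the controls as a covariate 2 of the 9 genes were called, Nqo1 and Srxn1, both higher, where 2.34% of all genes were called higher.

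**Figure D1:**
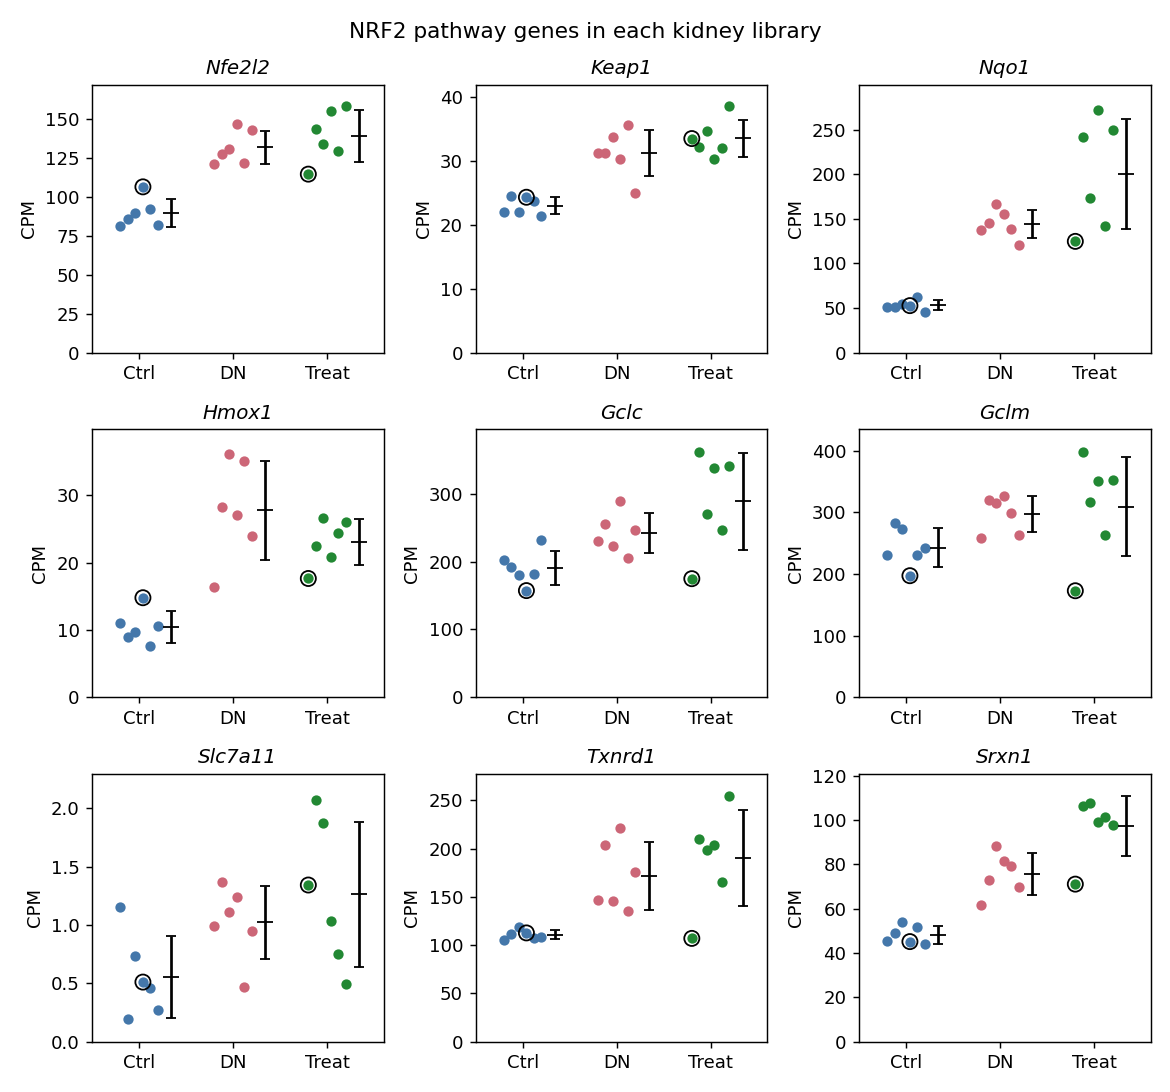
Each panel plots 1 gene, with CPM (counts scaled to the TMM-adjusted library total) on a linear axis from 0 and 1 point per library in the order of replicate numbers; the bar to the right of each group is the mean ± SD (n = 6), and open rings mark control library 4 and treated library 1. Nqo1 lies between 46.1 and 62.5 CPM in the controls and between 120.3 and 271.7 CPM in all DN and treated libraries, and the ringed treated library is the lowest of its group in 7 of 9 panels.

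In the fit without the covariate, the RNA of the factor and that of its inhibitor were both higher in DN than in Ctrl. Nfe2l2 (ENSMUSG00000015839) stood at 81.3, 88.0 and 106.6 CPM in the controls (lowest, median and highest of 6; CPM are counts scaled to the TMM-adjusted library total), at 121.3, 129.3 and 146.9 CPM in DN and at 114.8, 138.8 and 158.5 CPM in Treat. Both model groups lay wholly above the controls and overlapped each other, and the highest control was library 4. Nfe2l2 rose 1.47-fold in DN versus Ctrl (log2 fold change 0.56, SE 0.09, adjusted p = 0.000129) and 1.55-fold in Treat versus Ctrl (log2 fold change 0.63, SE 0.09, adjusted p = 2.25e-05). Treat and DN did not differ past the threshold (log2 difference 0.08, approximate 95% interval -0.11 to 0.27, adjusted p = 0.704). With the division of the controls as a covariate the DN change was 0.31 (SE 0.16, adjusted p = 0.257; 2.04e-08 to 0.257 over all alternatives) and the Treat change 0.39 (adjusted p = 0.122; 2.87e-11 to 0.122), and neither was called. The loss came with a smaller estimate as well as a larger SE, since control library 4 held 106.6 CPM and the other 5 controls 86.5 ± 4.82 CPM.

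Keap1 (ENSMUSG00000003308), the substrate adaptor that holds NRF2 for degradation, stood at 21.4, 22.9 and 24.6 CPM in the controls, at 25.1, 31.3 and 35.7 CPM in DN and at 30.4, 32.9 and 38.7 CPM in Treat. No control library reached the lowest DN or treated library. Keap1 rose 1.36-fold in DN versus Ctrl (log2 fold change 0.44, SE 0.08, adjusted p = 0.00047) and 1.46-fold in Treat versus Ctrl (log2 fold change 0.54, SE 0.08, adjusted p = 4.02e-05). The difference between Treat and DN was 0.10 (approximate 95% interval -0.07 to 0.28, adjusted p = 0.549). With the covariate the change was 0.36 in DN (SE 0.16, adjusted p = 0.186; 1.35e-05 to 0.186 over all alternatives) and 0.46 in Treat (SE 0.16, adjusted p = 0.0703; 1.23e-08 to 0.0703). Control library 4 lay within the range of the other controls for Keap1, at 24.4 CPM.

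Because the RNA of both Nfe2l2 and Keap1 was higher against Ctrl, their ratio was compared within each library, where no scaling between libraries enters. The count of Nfe2l2 was 3.90 ± 0.304 times that of Keap1 in Ctrl, 4.30 ± 0.830 times in DN and 4.17 ± 0.576 times in Treat (SD, n = 6 each; gene lengths are not taken into account). The groups overlapped widely. The log2 ratio differed between DN and Ctrl by 0.12 (two-sided exact permutation test over 924 splits, p = 0.346, 0.552 after adjustment over 6 tests of ratios), between Treat and DN by -0.04 (exact p = 0.801, adjusted 0.801) and between Treat and Ctrl by 0.09 (exact p = 0.368, adjusted 0.552).

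Nqo1 (ENSMUSG00000003849) encodes the NADPH-dependent quinone reductase, a target widely used to read NRF2 activity. It stood at 46.1, 52.0 and 62.5 CPM in the controls, at 120.3, 142.1 and 166.0 CPM in DN and at 124.7, 207.9 and 271.7 CPM in Treat. The 12 libraries of the model and treated groups all exceeded the 6 controls, and 4 of the 6 treated libraries exceeded every DN library. Nqo1 rose 2.72-fold in DN versus Ctrl (log2 fold change 1.44, SE 0.16, adjusted p = 3.84e-06) and 3.78-fold in Treat versus Ctrl (log2 fold change 1.92, SE 0.16, adjusted p = 1.2e-07). Of all genes tested, 3.41% had a higher log2 fold change in DN versus Ctrl. Control library 4, at 52.7 CPM, lay among the other controls (46.1 to 62.5 CPM). Both calls remained with the division as a covariate (log2 fold change 1.45, SE 0.34, adjusted p = 0.0207 in DN; 1.93, SE 0.36, adjusted p = 0.0032 in Treat), and these were the highest adjusted p over the 28 alternatives of each result, the lowest being 1.05e-16 and 8.56e-30.

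Between Treat and DN the Nqo1 log2 difference was 0.48 (SE 0.16, approximate 95% interval 0.14 to 0.82) and did not pass (adjusted p = 0.141). Without treated library 1, the lowest of its group, the difference was 0.58 and was called (adjusted p = 0.0337; 0.0299 to 0.264 over all alternatives).

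Hmox1 (ENSMUSG00000005413) encodes haem oxygenase 1, which splits haem into biliverdin, carbon monoxide and iron, and which BACH1 represses when haem is low. It stood at 7.67, 10.1 and 14.8 CPM in the controls, at 16.3, 27.6 and 36.1 CPM in DN and at 17.6, 23.5 and 26.7 CPM in Treat. Control library 4 was the highest control, at 14.8 CPM against 7.67 to 10.97 CPM in the other 5, and it still lay below all 12 libraries of the other groups. Hmox1 rose 2.66-fold in DN versus Ctrl (log2 fold change 1.41, SE 0.18, adjusted p = 1.32e-05) and 2.21-fold in Treat versus Ctrl (log2 fold change 1.14, SE 0.18, adjusted p = 6.83e-05). With the division as a covariate the changes were 0.91 (SE 0.32, adjusted p = 0.105; 8.25e-13 to 0.105 over all alternatives) and 0.64 (SE 0.32, adjusted p = 0.199; 6.83e-09 to 0.199), and the calls were lost. Hmox1 was the only member with a lower estimate in Treat than in DN: all 6 treated libraries lay below the DN median of 27.6 CPM. The log2 difference of -0.27 (approximate 95% interval -0.64 to 0.10) did not pass (adjusted p = 0.462).

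In the glutathione branch no gene passed the test in DN versus Ctrl. Gclc and Gclm encode the catalytic and the modifier subunit of glutamate-cysteine ligase, which makes the rate-limiting step of glutathione synthesis, and Slc7a11 encodes the light chain of the cystine-glutamate antiporter xCT, which brings in the cystine that supplies cysteine. Gclm is shown here with the 250 bases before its start in the rat (RefSeq, GRCr8, chr2:213031885-213032134, plus strand, matched by symbol), because this window holds the core of the antioxidant response element. The core was searched as TGACNNNGC on both strands, and the capitals mark the match, which lies on the opposite strand as TGACTAAGC. As printed, the capitals begin at base -172 from the start.

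Gclm upstream: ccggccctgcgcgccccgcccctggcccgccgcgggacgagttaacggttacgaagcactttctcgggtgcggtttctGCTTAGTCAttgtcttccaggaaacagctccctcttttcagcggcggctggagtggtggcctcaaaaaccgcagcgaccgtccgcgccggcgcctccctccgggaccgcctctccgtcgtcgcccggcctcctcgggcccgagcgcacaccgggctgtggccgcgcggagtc

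Such a match is a description of letters, not of binding. The core was present in 10.1% of all 33469 windows of this length in the RefSeq promoter table. Over the full windows, which add 50 bases after the start, the share was 12.1%, and 3 of the 8 members with a window held it: Gclm, Txnrd1 and Nfe2l2, where the match began at base 39 after the start. Keap1, Nqo1, Gclc, Slc7a11 and Srxn1 had no match to these letters in their windows. Hmox1 is not in that table.

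Gclc (ENSMUSG00000032350) stood at 157.3, 187.2 and 232.4 CPM in the controls, at 205.8, 238.4 and 290.0 CPM in DN and at 174.8, 304.0 and 362.4 CPM in Treat. All 6 DN libraries lay above the control median, 3 of them above the highest control. The DN versus Ctrl change of 0.34 (SE 0.15) did not pass (adjusted p = 0.0813), and that of 0.60 in Treat versus Ctrl did (SE 0.15, adjusted p = 0.00307). Control library 4 was the lowest control. With the covariate the estimates were therefore larger, 0.62 in DN (SE 0.28, adjusted p = 0.207; 0.0132 to 0.207 over all alternatives) and 0.88 in Treat (SE 0.29, adjusted p = 0.0621; 0.000121 to 0.0621), and neither was called. Without treated library 1, whose removal changes the pooled spread, the DN change of 0.34 was called (adjusted p = 0.0237).

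Gclm (ENSMUSG00000028124) stood at 197.3, 237.2 and 282.6 CPM in the controls, at 258.5, 307.2 and 326.9 CPM in DN and at 172.8, 334.6 and 398.9 CPM in Treat. Treated library 1, the lowest treated library, lay below all controls. Its changes of 0.29 in DN (SE 0.15, adjusted p = 0.148) and 0.35 in Treat (SE 0.15, adjusted p = 0.0669) against Ctrl did not pass. Without treated library 1 they were 0.29 (adjusted p = 0.0372; 0.024 to 0.263 over all alternatives) and 0.47 (adjusted p = 0.00204; 0.00204 to 0.169), and both were called. With the covariate the estimates were 0.59 in DN (SE 0.29, adjusted p = 0.244) and 0.65 in Treat (SE 0.29, adjusted p = 0.161), and neither was called; control library 4 was the lowest control.

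Slc7a11 (ENSMUSG00000027737) was near the limit of detection, with 6 to 32 counts in a control library, 12 to 42 in a DN library and 13 to 56 in a treated one. It stood at 0.192, 0.484 and 1.15 CPM in the controls, at 0.472, 1.05 and 1.37 CPM in DN and at 0.498, 1.19 and 2.07 CPM in Treat, and the 3 groups overlapped. The DN change of 0.89 had an SE of 0.41 and did not pass (adjusted p = 0.101), whereas without control library 1, the highest control, it was 1.25 and was called (adjusted p = 0.027; 0.0167 to 0.519 over all alternatives). The Treat change against Ctrl was 1.19 (SE 0.41, adjusted p = 0.0235), a call that 6 of the 28 alternatives lost, not all of them listed here. This call was lost on leaving out control library 2 (adjusted p = 0.0517), control library 6 (0.0554), treated library 2 (0.0613) or treated library 3 (0.059), and with the covariate (log2 fold change 1.30, adjusted p = 0.34; 0.00552 to 0.34 over all alternatives).

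The proportion of the subunits was compared within each library. The count of Gclm was 1.28 ± 0.183 times that of Gclc in Ctrl, 1.24 ± 0.163 times in DN and 1.07 ± 0.065 times in Treat (SD, n = 6 each). All 6 treated libraries lay below the median of DN and below the median of Ctrl, while the ranges overlapped. The log2 ratio was lower in Treat than in DN by 0.21 (exact permutation test, p = 0.0346) and lower in Treat than in Ctrl by 0.25 (exact p = 0.0195), and after adjustment over the 6 ratio tests neither passed (adjusted p = 0.104 for both). Without treated library 3, the treated library with the highest ratio, both passed (adjusted p = 0.039 for both; ranges over their 20 alternatives 0.039 to 0.208 and 0.039 to 0.286). DN and Ctrl differed by -0.05 (exact p = 0.66, adjusted 0.792).

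**Figure D2:**
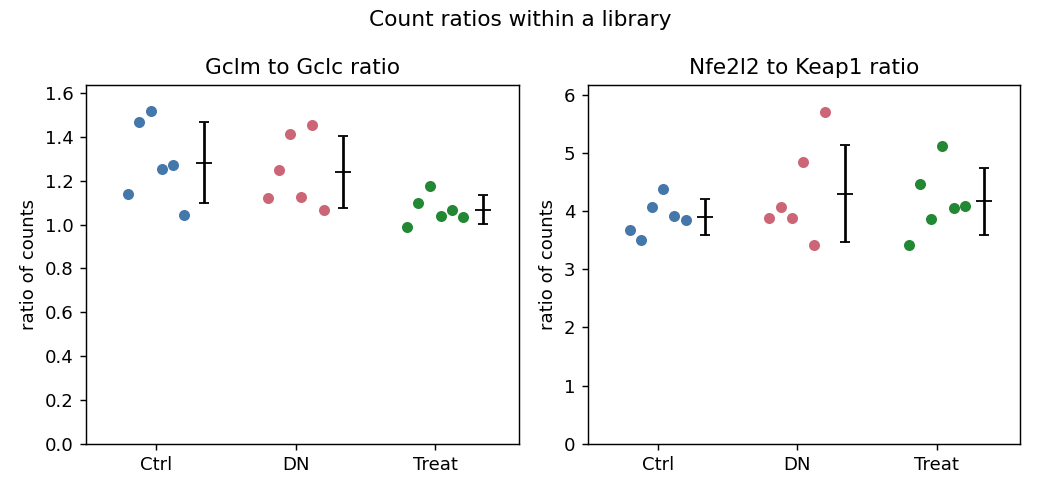
The left panel plots the ratio of Gclm to Gclc counts and the right panel that of Nfe2l2 to Keap1 counts, on linear axes from 0, with 1 point per library and the mean ± SD (n = 6) beside each group. The treated libraries hold 0.988 to 1.18 times as many Gclm as Gclc counts, against 1.05 to 1.52 in Ctrl and 1.07 to 1.45 in DN, and the Nfe2l2 to Keap1 ratios of the 3 groups overlap.

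Of the thioredoxin branch, Txnrd1 (ENSMUSG00000020250) encodes the cytosolic selenoenzyme that reduces thioredoxin at the expense of NADPH. The gene has 2 windows in the RefSeq promoter table. The one printed here holds the element core, again on the opposite strand, as TGACAAAGC (rat, GRCr8, chr7:22755905-22756154, minus strand). The capitals mark the match and, as printed, begin at base -78 from the start. The other holds none.

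Txnrd1 upstream: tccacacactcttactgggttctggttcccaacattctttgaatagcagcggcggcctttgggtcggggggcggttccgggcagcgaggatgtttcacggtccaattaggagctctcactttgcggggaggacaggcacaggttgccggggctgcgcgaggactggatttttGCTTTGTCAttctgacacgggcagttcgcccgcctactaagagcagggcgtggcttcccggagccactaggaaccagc

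Txnrd1 stood at 105.7, 109.8 and 119.1 CPM in the controls, at 135.5, 161.2 and 221.5 CPM in DN and at 107.0, 201.6 and 254.4 CPM in Treat. The controls were close together (SD 4.75 CPM, against 35.2 in DN and 49.7 in Treat), every DN library exceeded them all, and treated library 1 was the single treated library within their range. Txnrd1 rose 1.55-fold in DN versus Ctrl (log2 fold change 0.63, SE 0.16, adjusted p = 0.00569) and 1.71-fold in Treat versus Ctrl (log2 fold change 0.78, SE 0.16, adjusted p = 0.000779). Treat and DN differed by 0.15 (approximate 95% interval -0.19 to 0.49, adjusted p = 0.689). With the division as a covariate the estimates were 0.61 and 0.75, close to those without it, and the SE of 0.32 in both ended the calls (adjusted p = 0.28 in DN, 0.000172 to 0.28 over all alternatives; adjusted p = 0.142 in Treat, 8.76e-06 to 0.142). Control library 4, at 112.7 CPM, lay among the other 5 controls (105.7 to 119.1 CPM).

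Srxn1 (ENSMUSG00000032802) encodes sulfiredoxin, which restores overoxidised peroxiredoxins. It stood at 44.0, 47.2 and 54.0 CPM in the controls, at 61.7, 76.0 and 88.4 CPM in DN and at 71.1, 100.3 and 107.7 CPM in Treat. All DN libraries lay above all controls. Of the 6 treated libraries 5, at 97.8 to 107.7 CPM, lay above all DN libraries, and treated library 1 lay within the DN range. Srxn1 rose 1.57-fold in DN versus Ctrl (log2 fold change 0.65, SE 0.10, adjusted p = 0.000111) and 2.02-fold in Treat versus Ctrl (log2 fold change 1.01, SE 0.10, adjusted p = 6.64e-07). Both calls remained with the covariate (0.74, SE 0.20, adjusted p = 0.041 in DN; 1.11, SE 0.21, adjusted p = 0.00365 in Treat), which gave the highest adjusted p of the 28 alternatives of each result. The lowest were 4.92e-08 and 2.64e-19. Between Treat and DN the log2 difference was 0.36 (SE 0.10, approximate 95% interval 0.15 to 0.58; adjusted p = 0.0781). Without treated library 1, at 71.1 CPM, it was 0.44 and was called (adjusted p = 0.00933; 0.00707 to 0.157 over all alternatives).

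Nqo1 had the largest estimate of the members in Treat versus Ctrl (in DN versus Ctrl it was near that of Hmox1) and is shown for contrast with Gclm and Txnrd1, since the 250 bases before its start (rat, GRCr8, chr19:52220268-52220517, minus strand) held no match to the core and so have no capitals. The 50 bases after its start held no match either. Letters farther out on both sides were not searched, so an element there would not have been found.

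Nqo1 upstream: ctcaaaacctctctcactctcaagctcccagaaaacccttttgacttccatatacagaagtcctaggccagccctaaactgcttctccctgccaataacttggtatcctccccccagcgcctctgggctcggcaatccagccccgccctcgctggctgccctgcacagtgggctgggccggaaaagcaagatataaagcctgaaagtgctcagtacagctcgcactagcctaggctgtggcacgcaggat

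Whether TSK moved the pathway in diseased kidney is the question of Treat against DN. By edgeR's test none of the 9 genes was called in either direction, while 1.39% of all genes tested were called. At an unadjusted p under 0.05 there were 2, Nqo1 and Srxn1, both higher in Treat (16.4% of all genes had such a p), and DESeq2 and limma voom with library quality weights each called Srxn1 alone (adjusted p = 0.0192 and 0.00707; 0.00707 to 0.157 over all alternatives). The estimate was above 0 for 8 of the 9 genes, as for 49.2% of all genes, with a median log2 fold change of 0.15 against -0.01 for all genes. The treated and DN libraries overlapped for every member (1.80% of all genes had no overlap in either direction). Without treated library 1 the calls were Nqo1 and Srxn1, as given above. Scaling by library totals alone, the median of all genes moved from -0.01 to 0.13, and the calls were again these 2, Nqo1 at 0.60 (adjusted p = 0.0331; 0.0299 to 0.264 over all alternatives) and Srxn1 at 0.49 (adjusted p = 0.00914), so that relative to that median the differences were near those above.

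Treat was set against Ctrl to see how far the pathway of treated animals lay from that of undiseased ones. It called 8 of the 9 genes higher, all but Gclm, and none lower, where 23.0% of all genes were called higher. The median log2 fold change was 0.78 for the members and 0.02 for all genes. The 6 treated libraries lay wholly above the controls for 5 members, Nfe2l2, Keap1, Nqo1, Hmox1 and Srxn1 (11.5% of all genes in that direction). This comparison shares its controls with that of DN and its treated libraries with that of Treat and DN, so the 3 are not independent. The fit with the division of the controls as a covariate called 2 of the 9 genes higher, Nqo1 and Srxn1, and 3.90% of all genes.

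**Figure D3:**
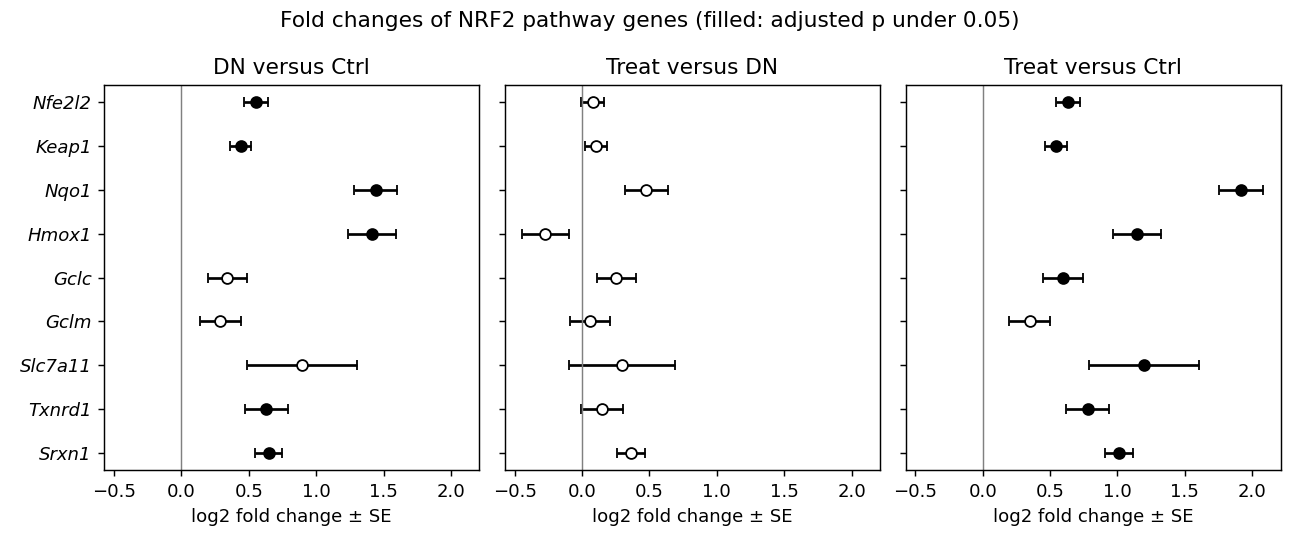
The log2 fold change of each gene is plotted with its SE for the 3 comparisons, from 1 fit of all 18 libraries, and filled points have an adjusted p under 0.05. In the left panel 6 points are filled and in the right panel 8, all above 0, and the middle panel (Treat versus DN) has none filled and 1 point below 0, Hmox1.

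Against control library 4 alone, that is, with the all-or-none division taken out, the order of the estimates partly changed. Nqo1 kept its log2 fold change in DN (1.45, against 1.44 without the covariate), as did Txnrd1 (0.61 and 0.63), while Nfe2l2 went from 0.56 to 0.31 and Hmox1 from 1.41 to 0.91, and Gclc and Gclm went up from 0.34 to 0.62 and from 0.29 to 0.59. All 6 DN libraries lay above control library 4 for every member except Slc7a11, for which 5 did. Of the treated libraries all 6 lay above it for Nfe2l2, Keap1, Nqo1, Hmox1, Gclc and Srxn1, and 5 for Gclm, Slc7a11 and Txnrd1. With 1 library as the control level, its own deviation and the division cannot be told apart.

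**Figure D4:**
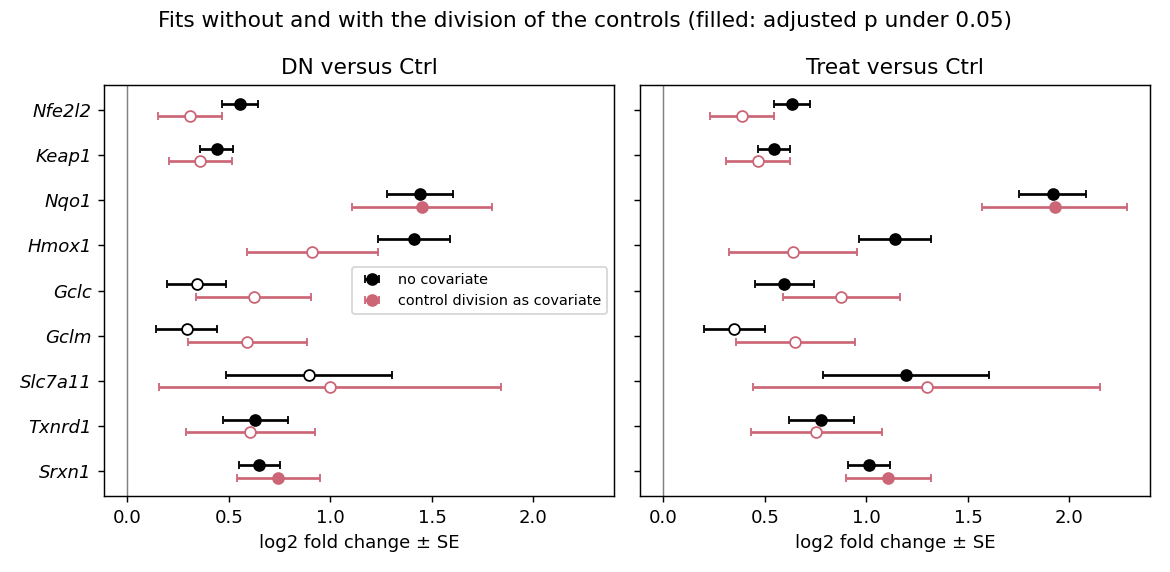
Log2 fold changes with their SE are plotted for DN versus Ctrl and Treat versus Ctrl, in black from the fit of the 3 groups and in red from the fit with the division of the controls as a covariate; filled points have an adjusted p under 0.05. The red bars are wider throughout, and the filled red points are Nqo1 and Srxn1 in both panels.

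Within a group, the level of Nfe2l2 RNA was set against that of each other member over the 6 libraries, which gave 24 relations. By Pearson's r and by Spearman's rho none passed after adjustment (two-sided exact permutation tests over 720 orders; lowest adjusted p = 0.0889 and 0.2), and 5 passed by r without it. The 2 lowest p in the treated group were those of Nqo1 (r = 0.95, p = 0.00556, adjusted 0.0889; rho = 0.94, p = 0.0167, adjusted 0.2) and Txnrd1 (r = 0.92, p = 0.00833, adjusted 0.0889; rho = 0.94, p = 0.0167, adjusted 0.2). Without the 2 libraries farthest from the median of Nfe2l2, r was 0.96 for Nqo1 and 0.70 for Txnrd1. In DN the same relations had r = -0.02 (p = 0.936, adjusted 0.983; rho = 0.31, p = 0.564, adjusted 0.796) and r = 0.69 (p = 0.181, adjusted 0.526; rho = 0.60, p = 0.242, adjusted 0.58). Without the 2 farthest libraries of DN, r was 0.93 for Nqo1 and 0.36 for Txnrd1. In Ctrl the r of Nqo1 was 0.42 with all libraries and 0.98 without the 2 farthest, and that of Txnrd1 0.41 and 0.22. The r of Nqo1 in DN and Ctrl thus hung on 2 libraries. In the controls Gclc ran the other way (r = -0.89, p = 0.0111, adjusted 0.0889; rho = -0.89, p = 0.0333, adjusted 0.267), with r = -0.90 without the 2 farthest libraries. Whether the relations differ between groups was not tested.

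**Figure D5:**
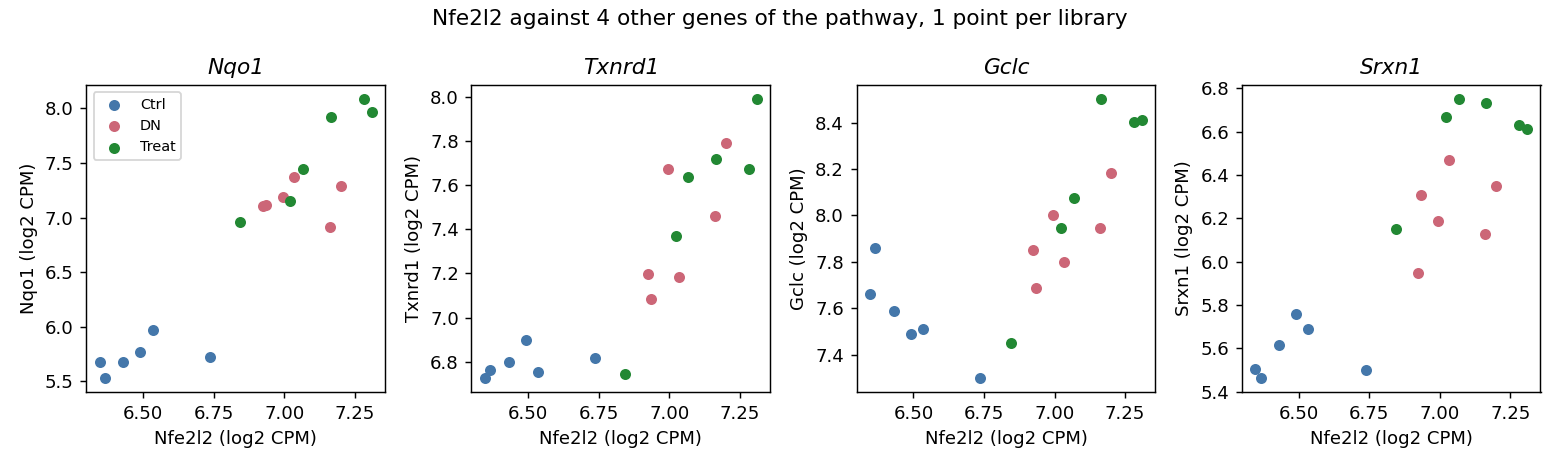
Each panel plots log2 CPM of Nfe2l2 on the horizontal axis and of Nqo1, Txnrd1, Gclc or Srxn1 on the vertical axis, with 1 point per library coloured by group. The controls lie apart at the left in all 4 panels, which is why no correlation of these uncentred values over all 18 libraries is given, and Gclc falls with Nfe2l2 among the controls (r = -0.89) and rises with it among the treated libraries (r = 0.93, exact p = 0.025, adjusted 0.15).

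As a description of likeness, log2 CPM was centred within each group and every other tested gene was ordered by its Pearson r with Nfe2l2 over the 18 libraries, which share their depth and scaling. Of the 19232 other genes, ENSMUSG00000022003 (r = 0.87) and ENSMUSG00000034394 (r = 0.85) came first. Among the members Txnrd1 came highest, in place 69 (r = 0.72), followed by Nqo1 in place 232 (r = 0.66), Gclc in place 1877 (r = 0.46), Gclm in place 2319 (r = 0.43), Srxn1 in place 2627 (r = 0.41) and Hmox1 in place 4476 (r = 0.30). Keap1 (r = -0.04) and Slc7a11 (r = -0.07) lay past the middle of the order, in places 11021 and 11684. Treated library 1 and control library 4, which stood apart on the second principal component, were kept, and the order without them was not computed.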

How the data were processed

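The authors deposited 1 table of raw counts per gene identifier, 1 column per library, with no normalization. GRCm38 and mm10, both builds of the mouse genome, are named per the submitters' processing notes. Aligner, counter, annotation and strand use are not given in the sources used. Columns were assigned by the library names in the labels. The 9 members were given as identifiers with symbols. The files pair no identifier with a name, and 0 of 55335 identifiers matched the rat gene table, so the 6 lists of further NRF2 regulators and targets and the marker lists, fixed by symbol, gave no value. The members and lists were chosen with earlier results of these data known.

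The count test was run with edgeR 4.0.16 in R 4.3.3: filterByExpr, TMM factors, 1 fit of all 18 libraries with 1 coefficient per group, quasi-likelihood F-test, Benjamini-Hochberg adjusted p under 0.05. SEs were derived from the F statistics, and approximate 95% intervals from the SE with 15 degrees of freedom. Log2 CPM used a prior count of 2. The fit was tested on simulated data that held no division of the controls and no difference between Treat and DN. That test therefore does not speak to the division. Ratios and correlations were tested in SciPy 1.17.1. Alternatives were DESeq2 1.42.0, limma 3.58.1 (voom with quality weights), RLE factors, library totals, no filter, CPM above 1 in at least 6 libraries, only the 2 groups compared, the replicate number as a block, the division of the controls as a covariate (over 1000 counts of ENSMUSG00000086503), leaving out control libraries 4 and 5 with treated library 1, and leaving out each library in turn. By the rule for named genes all 9 members are named, with the 2 identifiers most like Nfe2l2. No source says that replicate numbers mark a litter, batch or day. Promoter sequences are from RefSeq (GRCr8).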

Additional observations from a re-analysis of the deposited data

Results flagged for a closer look

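In the 27 sets of 6 libraries (9 genes in 3 groups), 1 library stood far from the others: Srxn1 was at 71.1 CPM in treated library 1 and at 97.8 CPM or more in the other 5 treated libraries, a gap of 0.729 of the range, past the limit set for 6 libraries. Chance passes this limit in about 1 set in 20. The same library was the lowest treated library for 7 of the 9 genes, all but Keap1 and Slc7a11, and had the highest TMM factor of all libraries (1.15).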

How the results depend on the processing

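The number of NRF2 pathway genes called higher was 6 between DN and Ctrl, 0 between Treat and DN and 8 between Treat and Ctrl. With the division of the controls as a covariate it was 2 against Ctrl both for DN and for Treat. In Treat versus DN it was 1 with DESeq2, 1 with limma voom, 1 with the replicate block, 2 with library totals and 2 without control libraries 4 and 5 and treated library 1. Leaving out 1 library at a time gave 6 to 8, 0 to 2 and 7 to 9 in these comparisons. No member was called lower under any alternative, and Gclm in Treat versus DN was the only member whose direction turned, at -0.027 to 0.18 with single libraries left out (below 0 without treated library 2). With single libraries left out, the log2 ratio of Gclm to Gclc differed by -0.10 to 0.0032 (DN versus Ctrl; above 0 without control library 3), -0.25 to -0.16 (Treat versus DN) and -0.31 to -0.20 (Treat versus Ctrl), and that of Nfe2l2 to Keap1 by -0.10 to 0.0508 (Treat versus DN; above 0 without DN library 4 or 6 or treated library 1), with 0.0195 without the 3 libraries that stand apart. Same-numbered libraries of different groups correlated over 0.1 in 2 of 18 pairs (r from -0.19 to 0.19), so the replicate block pairs by number alone. With it Srxn1 was called in Treat versus DN (log2 fold change 0.36, adjusted p = 0.0437; 0.00707 to 0.157 over all alternatives), and it changed no other member's call. Over all genes, 6202 and 8629 calls against Ctrl (DN and Treat) became 986 and 1862 with the covariate. The 268 calls between Treat and DN became 799 with DESeq2, 775 with library totals (84.4% of them higher, against 38.4%), 737 with limma voom, 569 without the 3 libraries, 119 without a filter, 116 with only the 2 groups, 117 with the replicate block, and 97 to 446 with single libraries left out (by the library left out, 164 for control 6, 152, 119, 97 and 125 for DN 1, 2, 4 and 6, and 446, 119 and 160 for treated 1, 3 and 6). In Treat versus Ctrl 64.5% of the calls were higher with library totals, against 51.2%. The causes of these shifts were not tested. Depth limits Slc7a11 alone among the members.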
